A study of Drosophila melanogaster with 4 samples.

Results

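The vacuolar proton pump (V-ATPase) is encoded in *Drosophila melanogaster* by a family of *Vha* genes, whose transcripts were followed here in larvae mutant for *ash2*, a gene of the trithorax group that maintains active transcription through chromatin. The members were the genes whose current symbol starts with *Vha* followed by a digit or a capital letter, read from probes annotated to 1 gene. The gene table held 33 such genes, 13 for the V1 sector and 20 for the V0 sector, accessory proteins included. A probe was listed for 31 of them, 17 had a value on at least 1 array, and 14 had a value in both RNA extractions and were tested, out of 1659 genes tested in all. The mutant larvae (w1118;+;ash2I1) and the wild-type larvae (w1118;+;+) shared chromosomes X, Y and 2 of 1 isogenic line, but chromosome 3 of the mutant, which carries the *ash2* allele, had not been exchanged. The mutation was kept over a balancer chromosome, and wandering larvae early in the last instar, staged by blue guts and lacking the Tubby mark of the balancer were taken whole. Mutant RNA from 2 extractions, each on 2 arrays, was set against a pool of wild-type RNA that served as the reference on all 4 arrays.

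The pump consists of 2 sectors. The V1 sector lies in the cytosol and hydrolyses ATP, which turns a central shaft, and the V0 sector lies in the membrane, where the turning proteolipid ring carries protons past subunit a. The pump acidifies lysosomes, endosomes and secretory vesicles in all cells, and in insects it also sits in the apical membrane of epithelia such as the Malpighian tubules and the acid-secreting cells of the midgut, where it powers the transport of ions. Many of its subunits in the fly have a gene used in most tissues and further gene copies used in few.

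A log2 ratio above 0 is taken to mean more transcript in the mutant. This direction is likely rather than stated, and it rests on the dyes, Cy5 for mutant RNA and Cy3 for the pool on all 4 arrays, with no dye swap. Spots that failed the quality thresholds of the authors were empty, so the 4 arrays held between 1108 and 3513 values, the fewest on array 4. Each array measures the ratio in whole larvae, in which fewer cells of a type and less RNA per cell cannot be told apart. Of the tissues of a whole larva, midgut, fat body, salivary gland, muscle and cuticle each had 4 to 12 tested marker genes, whereas of 10 Malpighian tubule markers with a probe 3 had a value and none was tested. The number of arrays limits the precision. Arrays 1 and 2 shared the amplified RNA of extraction 1, and arrays 3 and 4 that of extraction 2, so each pair was averaged and n = 2 throughout. The labels name the extractions as biological replicates. The p-values rest on the spread between these 2, which limma draws towards the spread pooled over all tested genes. The probe of *ash2* was empty on every array, so the label of the mutant could not be checked by its gene.

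The first question was which pump genes could be measured. Of the 31 genes with a probe, 17 had a value (54.8%), against 3507 of 12058 genes in the whole table (29.1%). All 5 subunits encoded by a single gene, that is B (*Vha55*), C (*Vha44*), E (*Vha26*), G (*Vha13*) and H (*VhaSFD*), had a value. Of the 26 genes with a probe that belong to subunits with several genes, 12 had one. Values were thus found for 7 of 8 V1 subunits and for 6 of 6 kinds of V0 subunit. The exception was the catalytic subunit A, for which *Vha68-3* had a probe without a value, and *Vha68-1* and *Vha68-2* had no probe in the annotation used. The other genes without a value were the further copies *Vha14-2*, *Vha36-2*, *Vha36-3*, *Vha100-3*, *Vha16-2*, *Vha16-3*, *Vha16-4*, *Vha16-5*, *VhaPPA1-2*, *VhaAC39-2*, *VhaAC45RP*, *VhaM9.7-a* and *VhaM9.7-d*. An empty spot here says that it failed the quality thresholds, not that the gene was silent.

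No gene of the pump passed the test for a change. A gene counted as called if its adjusted p was below 0.05 and its change 2-fold or more (limma, n = 2). None of the 14 tested members met this, where 6.63% of all tested genes did. At an unadjusted p under 0.05 there was 1 member, *Vha100-4*, against 34.2% of all tested genes. The median log2 ratio of the 14 genes was -0.048, and that of all tested genes was 0.0086. Without regard to sign, the median change of the members was 0.13 log2 units, against 0.27 over all tested genes, and 12 of the 14 lay below that overall median. The 95% interval of limma stayed inside a 2-fold change in both directions for 13 of the 14 genes, as it did for 76.7% of all tested genes. In 6 of the 14 the extractions had opposite signs, against 22.2% of all tested genes. These shares describe the list and were not tested against the other genes.

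**Figure D1:**
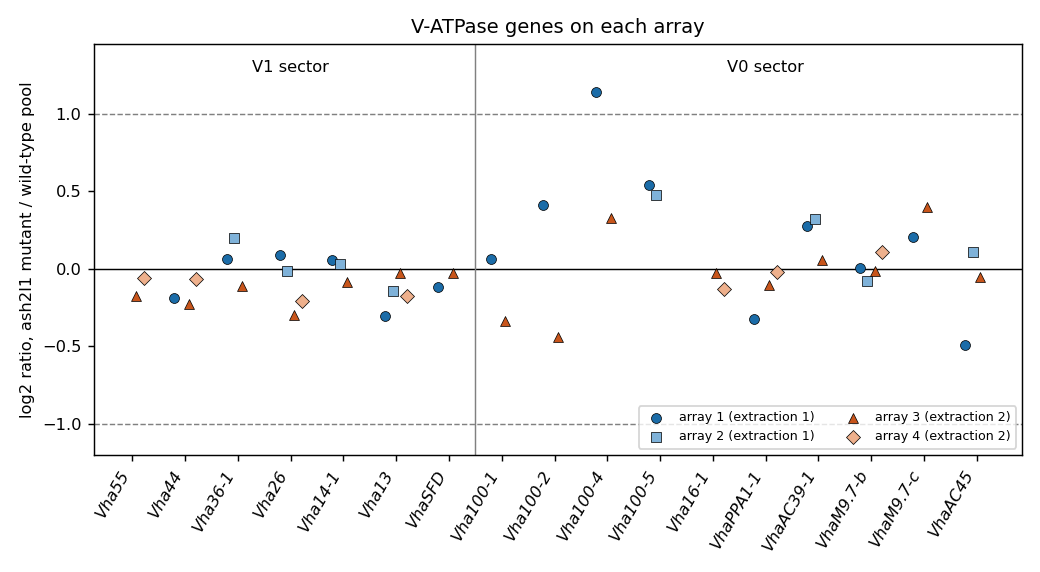
Log2 ratio (vertical axis, mutant over wild-type pool) of the 17 V-ATPase genes with a value, 1 point for each array, with V1 genes on the left and V0 genes on the right and dashed lines at a 2-fold change. Of all these points, that of *Vha100-4* on array 1 (1.14) is the one beyond a 2-fold change.

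In the V1 sector, which hydrolyses ATP, the 6 tested genes lay closest together, with log2 ratios from -0.17 to 0.010 and a median of -0.092. *Vha26*, for subunit E of the peripheral stalk, was read on all 4 arrays, at 0.088, -0.017, -0.30 and -0.21 on arrays 1 to 4. Extraction 2 was thus the lower of both, and the mean of -0.11 ± 0.15 (SE, n = 2) had an interval from -0.51 to 0.29. *Vha13*, for subunit G of the same stalk, had -0.31, -0.14, -0.030 and -0.18. All 4 of its values were below 0, and its mean of -0.16 ± 0.13 (SE, n = 2) did not pass (adjusted p = 0.423, limma). In *Vha26* the values of extraction 1 do not overlap with those of extraction 2, whereas in *Vha13* they do.

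Subunits C and H connect the catalytic head with the membrane part, and C is known to leave when the pump comes apart. *Vha44*, for subunit C, had -0.19 on array 1, -0.23 on array 3 and -0.065 on array 4, with a mean of -0.17 ± 0.13 (SE, n = 2). *VhaSFD*, for subunit H, had -0.12 on array 1 and -0.030 on array 3. Both genes were below 0 on every array that read them, and neither passed (adjusted p = 0.405 and 0.71, limma). The second probe of *Vha44* had no value.

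The central shaft is built of subunits D and F, and both of its measured genes changed sign between the extractions. *Vha36-1*, for subunit D, had 0.065 and 0.20 on the arrays of extraction 1 and -0.11 on array 3, with a mean of 0.010 ± 0.14 (SE, n = 2). *Vha14-1*, for subunit F, had 0.057, 0.030 and -0.087 on the same arrays, with a mean of -0.022 ± 0.13. *Vha55*, the nucleotide-binding subunit B, was read in extraction 2 only and was not tested. Its 2 probes gave -0.26 and -0.090 on array 3 and -0.077 and -0.044 on array 4, so all were below 0. On arrays 3 and 4 every measured V1 gene was below 0, 7 of 7 and 4 of 4, whereas on arrays 1 and 2 this held for 3 of 6 and 2 of 4. Arrays 3 and 4 carried the same RNA, so they are not separate observations. The V0 genes were also more often below 0 on the arrays of extraction 2, with 2 of 9, 1 of 4, 6 of 9 and 2 of 3 on arrays 1 to 4. Over all genes the share below 0 lay between 45.7% and 49.1% on the 4 arrays.

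The V0 sector was spread more widely, with 8 tested genes from -0.19 to 0.73 and a median of -0.0057. The SD over genes was 0.31 in V0 and 0.073 in V1, and 0.18 in V0 without *Vha100-4*. The SE of single genes ran from 0.13 to 0.24 in V0 and from 0.13 to 0.15 in V1. The SD of V1 thus lay below the SE of each of its genes. Whether the sectors differ was not tested, since the members were chosen with results of these data known.

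Subunit a, the part of V0 through which protons enter and leave the ring, has 5 genes in the fly, of which 4 had a value, and these were the members farthest apart. *Vha100-4*, the form known for acid secretion in the midgut, had the highest value among the members, at 1.14 on array 1 and 0.33 on array 3, with no value on arrays 2 and 4. Both extractions were above 0, and the mean log2 ratio was 0.73 ± 0.24 (SE, n = 2), or 1.66-fold, with an interval from 1.06-fold to 2.6-fold. It did not pass after adjustment (adjusted p = 0.119, limma), although with quantile normalisation between arrays its adjusted p was 0.0463 at a log2 ratio of 0.72, still under a 2-fold change. Over the other alternatives that kept it, its adjusted p lay between 0.0832 and 0.15.

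*Vha100-5*, a further form, was also above 0, at 0.54 and 0.48 on the arrays of extraction 1, and had no value in extraction 2. *Vha100-1*, the form known from nerve endings, had 0.064 on array 1 and -0.33 on array 3, with a mean of -0.14 ± 0.16 (SE, n = 2). *Vha100-2*, a form used in many tissues, had 0.41 on array 1 and -0.44 on array 3. These 2 values of *Vha100-2* came from different probes, each of which was empty on the other arrays, so a difference between extractions and one between probes cannot be told apart. Its mean was -0.016, with an interval from -0.69 to 0.65. *Vha100-4* was above *Vha100-1* by 1.07 log2 units in extraction 1 and by 0.66 in extraction 2, and above *Vha100-2* by 0.73 and 0.77. *Vha100-4* and *Vha100-2* lie next to each other on arm 3R with no coding gene between them in the gene table. The forms are related in sequence, and whether a probe also bound transcripts of another form was not tested.

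Markers of the midgut, the tissue in which *Vha100-4* is known to act, moved in both directions. Of 12 tested midgut markers 4 were called higher and 1 lower, where 3.8% and 2.83% of all tested genes were called in these directions, and their median log2 ratio was 0.40, with a range from -1.85 to 1.97. The amylase genes *Amy-d* and *Amy-p* rose 3.91-fold and 3.32-fold, the protease genes *Jon44E* and *alphaTry* rose 2.49-fold and 2.14-fold, and the protease gene *Jon66Cii* fell 3.61-fold (adjusted p between 0.0218 and 0.0409, limma, n = 2). The Malpighian tubule markers *NaPi-T*, *ZnT35C* and *ClC-a* had a value in extraction 1 only, with 1.30 and 0.63 for *NaPi-T* on arrays 1 and 2, and 0.44 for *ZnT35C* and -0.068 for *ClC-a* on array 1. Among markers of other tissues, 3 of 5 tested genes were called lower in fat body (median -1.02), 2 of 6 in salivary gland (median -1.41) and 3 of 4 in epidermis and cuticle (median -1.33). Salivary gland markers also moved in both directions, with a range from -3.09 to 0.80. Those of fat body ran from -2.11 to 0.0086, and those of epidermis and cuticle from -2.13 to -0.088. Of 6 tested muscle markers none was called (median 0.13). The part of any of these markers in the values of the pump genes and of the related lists was not tested.

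The proteolipid ring is made of subunits c and c″. *VhaPPA1-1*, for c″, had -0.32 on array 1, -0.11 on array 3 and -0.020 on array 4. It was below 0 in both extractions, with a mean of -0.19 ± 0.14 (SE, n = 2), the lowest of the tested members, and did not pass (adjusted p = 0.391, limma). *Vha16-1*, the c subunit found in most tissues, was read in extraction 2 only and was not tested. Its 3 probes gave -0.25, 0.092 and 0.082 on array 3 and -0.17, -0.072 and -0.15 on array 4, so the probes disagreed in sign on array 3 and were all below 0 on array 4. The averages over its probes were -0.024 and -0.13.

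The collar between shaft and ring is subunit d, whose gene *VhaAC39-1* had 0.28, 0.32 and 0.059 on arrays 1 to 3. All were above 0, and the mean was 0.18 ± 0.14 (SE, n = 2, adjusted p = 0.417, limma). Among the genes of the small membrane subunit e, *VhaM9.7-b* had 0.0025, -0.077, -0.013 and 0.11 on arrays 1 to 4. Its mean of 0.0046 ± 0.13 (SE, n = 2) was the nearest to 0 of the tested members, and its interval ran from -0.35 to 0.36. *VhaM9.7-c*, another form of e, had 0.20 on array 1 and 0.40 on array 3. It was above 0 in both extractions, with a mean of 0.30 ± 0.14 (SE, n = 2), or 1.23-fold, and did not pass (adjusted p = 0.205, limma).

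The accessory protein Ac45 binds to V0. Its gene *VhaAC45* had -0.49 on array 1 and 0.11 on array 2, which carried the same RNA. On array 3 its 2 probes gave -0.20 and 0.089, so that neither arrays nor probes settled a sign, and the mean was -0.12 ± 0.13 (SE, n = 2). The gene of the other accessory protein is now named *ATP6AP2*, formerly *VhaM8.9*, and is not a member by its symbol. It had 0.0096, 0.12 and -0.14 on arrays 1 to 3, with a mean of -0.036 ± 0.14 (SE, n = 2, adjusted p = 0.872, limma).

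**Figure D2:**
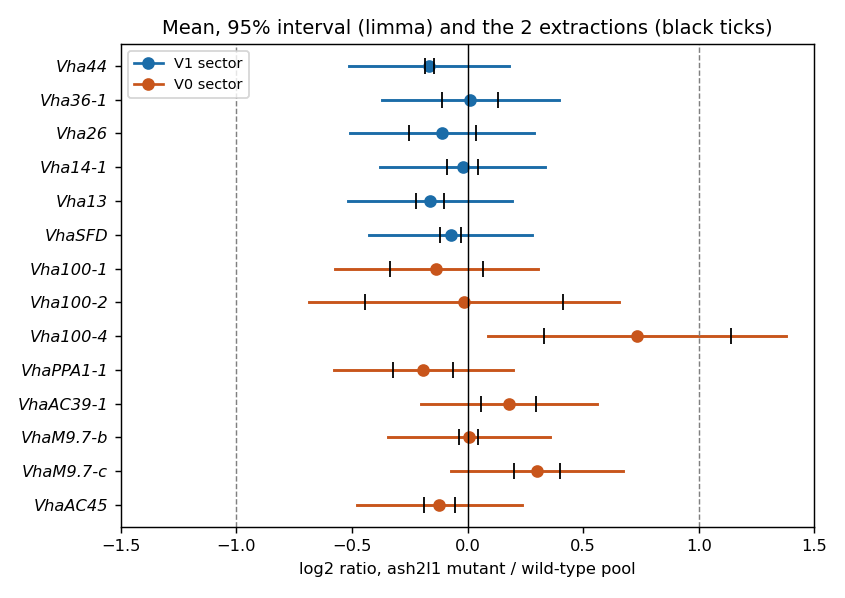
Mean log2 ratio (horizontal axis) of the 14 tested V-ATPase genes, with the 95% interval of limma as a line and the 2 extractions as black ticks, and with dashed lines at a 2-fold change. The interval of *Vha100-4* reaches beyond a 2-fold rise (upper end 1.38), and those of the other 13 genes lie within the dashed lines.

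Across the 14 tested genes, 5 were below 0 in both extractions, 3 were above 0 in both and 6 changed sign. Of all 1659 tested genes, 626 were below 0 in both, 665 were above 0 in both and 368 changed sign. The members below 0 in both were *Vha13*, *Vha44*, *VhaSFD*, *VhaPPA1-1* and *VhaAC45*, the last as an average over arrays and probes of both signs. Those above were *Vha100-4*, *VhaAC39-1* and *VhaM9.7-c*, which all belong to V0. In 7 of 14 genes extraction 2 was the lower of both. The 8 tested members on chromosome 3, which differs in origin between the strains, had a median of -0.063, and the 6 on the other chromosomes had one of -0.048. The value of extraction 2 came from array 3 alone in 9 of the 14 genes, and that of extraction 1 from array 1 alone in 7.

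**Figure D3:**
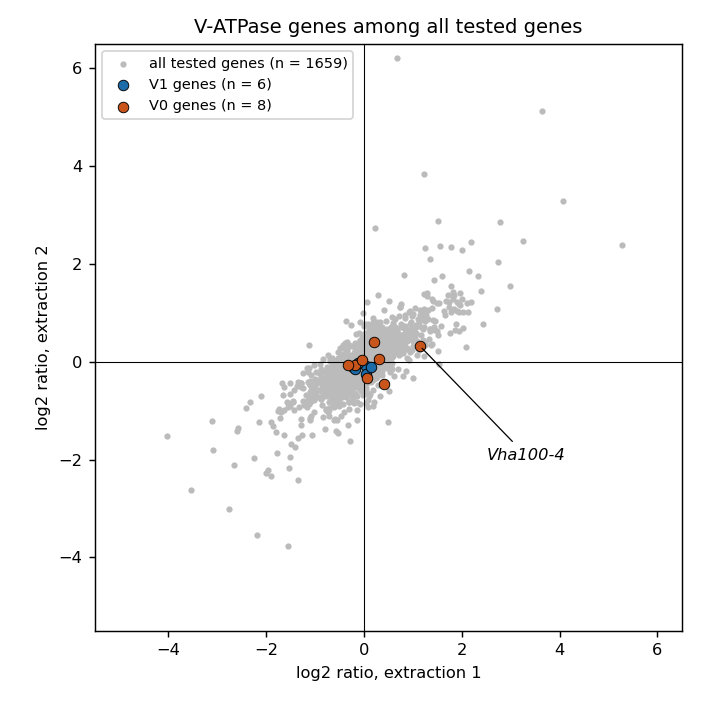
Log2 ratio in extraction 1 (horizontal axis) against extraction 2 (vertical axis) for the 1659 tested genes in grey, with the 6 V1 genes in blue and the 8 V0 genes in orange. The members lie near the origin, and *Vha100-4* (1.14 and 0.33) is the one farthest from it.

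Genes that work with the pump were followed as lists. The mitochondrial ATP synthase is a related rotary machine that makes ATP, and all 12 of its measured genes were tested and none was called. Their median log2 ratio was 0.14, with a range from -0.70 to 0.39, and 8 were above 0 and 4 below. *blw*, for the catalytic head, had 0.41, 0.35, 0.32 and 0.095 on arrays 1 to 4, with a mean of 0.29 ± 0.13 (SE, n = 2). The lowest member, *CG13551*, entered the list through its older name IF1, an inhibitor of the synthase and not a subunit, and had -0.70 ± 0.13 (adjusted p = 0.051, limma). Of the subunits themselves *ATPsynCF6* was the lowest, at -0.26 ± 0.13, and *ATPsyndelta* the highest, at 0.39 ± 0.14. *ATPsynB* and *ATPsynD* of the stalk had 0.026 ± 0.13 and 0.079 ± 0.13. The small membrane subunit genes *ATPsynE* and *ATPsynG* were above 0 on all 4 arrays, at 0.36 ± 0.13 and 0.27 ± 0.13, and did not pass (adjusted p = 0.141 and 0.218, limma).

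Lysosomal hydrolases and lipid transfer proteins work in the compartment that the pump acidifies. Of 23 genes with a value 13 were tested, none was called, and their median was -0.26, with a range from -0.74 to 0.53. The protease gene *cathD* (cathepsin D) had -1.18, -0.62, -0.69 and -0.47 on arrays 1 to 4, all below 0, with a mean of -0.74 ± 0.15 (SE, n = 2). At 1.67-fold it stayed short of a 2-fold change, and its adjusted p of 0.0547 (limma) was not below 0.05. *CtsB* (cathepsin B) was also below 0 on all 4 arrays, at -0.45 ± 0.13, whereas *CtsL1* (cathepsin L) was above 0 on all 4, at 0.30 ± 0.14. The sterol carrier genes *Npc2a*, *Npc2c* and *Npc2f* had 0.47, 0.53 and 0.53, whereas *Npc2d* of the same family had -0.26 and was below 0 on all 3 arrays that read it. Other genes of this family were read in 1 extraction and not tested. *Npc2g* had 1.71 and 0.96 on arrays 1 and 2, and *Npc2h* and *Npc2b* had 0.999 and 0.0052 on array 3. *CtsF* (cathepsin F) had -0.20 ± 0.17, and *CtsL3*, a cathepsin L-type gene outside the list, had -0.75 ± 0.22 (adjusted p = 0.103, limma). The cathepsin genes thus did not share a sign. All remaining tested genes of the list were below 0, with *GILT1* at -0.54, *GILT2* at -0.48, *Sap-r* at -0.39, *Lamp1* at -0.28 and *GILT3* at -0.23.

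Of the axis by which the lysosome reports to the growth kinase TORC1, 4 of 8 measured genes were tested, all for the Ragulator complex that docks on the pump. *Lamtor1*, *Lamtor2*, *Lamtor3* and *Lamtor5* had -0.19, 0.17, -0.0063 and -0.47, and none was called. The mean of *Lamtor5* came mostly from array 3, at -0.85, against -0.058 and -0.10 on arrays 1 and 2. Its SE was 0.23 (n = 2), and its interval ran from -1.09 to 0.16. The transcription factor *Mitf*, which is known to drive *Vha* genes in the fly, was not tested. Of the partners of the pump in epithelia, 5 of 16 measured genes were tested and none was called, with a median of -0.21. The carbonic anhydrase genes *CAH1* and *CAH2*, whose products supply protons, had -0.21 ± 0.13 and -0.57 ± 0.14 (SE, n = 2), the sodium pump subunit gene *nrv1* had -0.21 ± 0.13, and the exchanger genes *Nha1* and *Nha2* had -0.17 ± 0.14 and 0.21 ± 0.22. *CAH2* was below 0 on all 3 arrays that read it. Of the list for assembly and trafficking of the pump only *mtd* was tested, with 0.14 on array 1 and 0.22 on array 3 and a mean of 0.18 ± 0.13 (SE, n = 2).

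**Figure D4:**
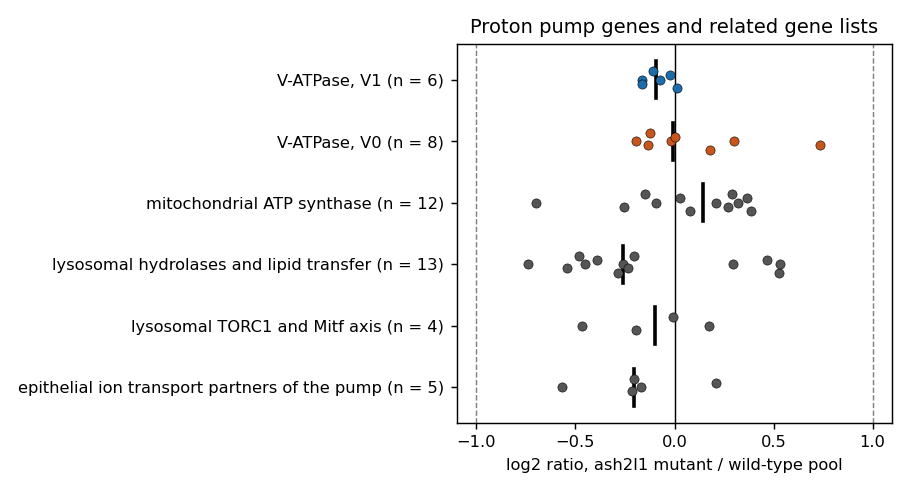
Log2 ratio (horizontal axis) of each tested gene in the 2 sectors of the pump and in 4 related lists, with black bars at the medians and dashed lines at a 2-fold change. All points lie within a 2-fold change, and the medians run from -0.26 for the lysosomal list to 0.14 for the mitochondrial ATP synthase.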

How the data were processed

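The authors scanned the slides, dropped low-quality spots, applied normexp background correction, normalised each array with OLIN and then scaled the arrays to each other, and fitted limma. The deposited values are the resulting log2 ratios, with removed spots empty. Neither log base nor direction stands in the file, and both were taken from convention and the dyes. Versions of limma and OLIN were not stated for the deposited values.

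Of 16416 probes 13164 had 1 gene in the annotation. Symbols were updated through a gene table of assembly Release 6, used for names, arms and gene order only. Probes of a gene were averaged per array, then the arrays of an extraction. An intercept was tested against 0 with limma 3.58.1 in R 4.3.3, with Benjamini-Hochberg adjustment over all 1659 genes. The pool stands for 1 control sample, and its spread does not enter the test. SE, intervals and p-values are the moderated ones of limma, which draw the variance of each gene towards that of all tested genes. The members, lists and naming rule (all members with a value, called list members, and up to 6 genes of some lists) were chosen with earlier results of these data known. *ATPsyndelta*, *CG13551*, *CtsL3* and genes of the lysosomal and TORC1 lists and of the midgut and Malpighian tubule markers were named after their values were seen. Alternatives are given in the closing section. No sequence was analysed here, so the planned promoter scan was not made.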

Additional observations from a re-analysis of the deposited data

How the results depend on the processing

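No V-ATPase gene was called in limma under any setting tried, but 7 of the 14 were still tested without array 1, 5 without array 3 and 3 among genes on all 4 arrays. With quantile normalisation 1 member (*Vha100-4*) had an adjusted p below 0.05, at less than a 2-fold change. Over all genes the count was 110 of 1659, and 168 without a minimum fold change. Among genes on all 4 arrays it was 49 of 278. It was 99 of 1155 without array 1 and 55 of 1529 without array 2. Without array 3 it was 0 of 358, and without array 4 it was 123 of 1620. With arrays centred, scaled, quantile-normalised or kept separate, or extraction as a random block, it lay between 129 and 147 of 1659. With 1 probe per gene it was 81 of 1648. The numbers tested differ, so these counts are not directly comparable. The V1 median stayed between -0.14 and -0.076. The V0 median lay between -0.068 and 0.028, so its sign depended on the setting, and it was -0.016 without *Vha100-4*, an alternative added after seeing the data. Of 140 values of single genes 9 changed sign, and none of these lay farther from 0 than 0.028. They were *Vha100-2* with quantile normalisation (0.014), *Vha36-1* without array 2 (-0.023), with arrays centred (-0.0031) or scaled (-0.0023), *VhaAC45* without array 1 (0.028) and *VhaM9.7-b* without array 1 (-0.015), without array 4 (-0.025), centred (-0.0048) or scaled (-0.0062). Not every one of the 140 values could change. Genes read on arrays 1 and 3 alone kept their value without array 2 or 4, and were not tested without array 1 or 3. Over the fits that left out 1 array, values ran from -0.023 to 0.044 for *Vha36-1*, from -0.27 to 0.028 for *VhaAC45* and from -0.025 to 0.034 for *VhaM9.7-b*. No paired analysis was possible because there is 1 group.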
